A study of Mus musculus with 4 samples.

Results

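The 5 NF-kB subunit genes (Nfkb1, Nfkb2, Rel, Rela and Relb) and 5 genes of the IkB family (Nfkbia, Nfkbib, Nfkbie, Nfkbiz and Bcl3) were followed in mouse dendritic cells whose NR4A3 had or had not been silenced. The genes were taken by symbol, each at its brightest probe set with a single gene symbol. These genes, and the pathway and marker lists below, were chosen with earlier results of these data known. Their counts beside the shares of all genes are therefore descriptive and not independent support. Of the 10 genes, 9 had such a probe set, 1 each, among 19938 named genes. Nfkb1 is not analysed here. Nearly all of the measured genes rose with LPS, Rela being the exception, and Rel and Relb fell with the NR4A3 siRNA.

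Whole bone marrow was cultured with GM-CSF at 20 ng/mL in 10% serum to give dendritic cells, and siRNA was electroporated on day 10. LPS, a bacterial product that activates the receptor TLR4, was given 24 hours later at 100 ng/mL, and all cells were harvested after another 24 hours. The 4 conditions were control siRNA unstimulated, control siRNA with LPS, NR4A3 siRNA unstimulated and NR4A3 siRNA with LPS, with 1 Affymetrix Mouse Gene 1.0 ST array each. The strain labels conflict for all 4 arrays, with BALB/c under culture and C57BL/6 under sample characteristics, and all conditions share the GM-CSF culture and the electroporation. Values are log2 expression after RMA and quantile normalization, so a difference of 1 is a doubling, and levels of different genes are not compared, since probe sets differ in response.

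With single arrays, the difference of a pair cannot be set against replicates. It was counted when it was at least 1.5-fold and the brighter array reached 6.66, the median of all named genes, which all 9 genes did. The average effect of LPS over both siRNAs and that of silencing over both states were tested with an additive limma fit over 10592 genes with Benjamini-Hochberg adjustment, and "rose" and "fell" are used for genes with an adjusted p under 0.05. Nothing in the labels ties the arrays to separate cultures, and with 1 array per condition these p-values measure no spread between replicates. They set each average against the fit's residual, with a variance prior taken from all genes tested. That residual is how far the LPS difference departs between the siRNAs, plus array noise.

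NF-kB is a family of dimeric transcription factors. Rela, Rel and Relb carry their own activation domain, whereas Nfkb1 and Nfkb2 encode precursors that are processed to the DNA-binding partners p50 and p52. In resting cells IkB proteins hold the dimers in the cytoplasm. TLR4 signals through adaptors and TRAF proteins to the IKK kinase complex, which marks IkB for degradation, and the freed dimers then induce several genes of their own family, above all Nfkbia, as feedback. In a slower branch the kinase NIK, encoded by Map3k14, drives processing of the Nfkb2 precursor and the activity of Relb dimers. Both branches operate in dendritic cells, where they are known for controlling cytokine production and maturation.

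The promoters of the genes are shown because several carry the family's own binding motif. RefSeq promoter windows (GRCm38.p6, 250 bases before to 50 after each listed start) were matched for 7 of the 10 genes, in 9 windows. Windows of Nfkb1, Relb and Nfkbiz were not used here. On either strand, with overlapping matches counted, the kB consensus was found in 7 of these 9 windows and in 5 of the 7 genes, against 8.46% of all 32851 windows and 9.55% of all 27025 genes. Stretches from these 5 genes follow, 5′ to 3′ on the strand of the gene, with the letters covered by a kB match in capitals.
Nfkbia: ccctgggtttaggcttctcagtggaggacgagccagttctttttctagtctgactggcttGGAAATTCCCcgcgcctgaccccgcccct
Nfkbie: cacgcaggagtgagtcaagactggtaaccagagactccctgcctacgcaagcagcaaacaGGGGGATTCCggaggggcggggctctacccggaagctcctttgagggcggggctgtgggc
Rel: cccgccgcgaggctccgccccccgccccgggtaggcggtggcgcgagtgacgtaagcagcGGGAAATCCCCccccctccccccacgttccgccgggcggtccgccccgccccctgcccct
Nfkb2: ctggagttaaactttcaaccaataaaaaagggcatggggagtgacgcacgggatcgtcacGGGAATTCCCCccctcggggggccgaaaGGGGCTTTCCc
Nfkb2, a later start: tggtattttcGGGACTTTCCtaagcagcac
Bcl3: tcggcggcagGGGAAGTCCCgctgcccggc

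The stretch of Nfkbia lies at chr12:55492648-55492736 on the minus strand, and its match covers positions -29 to -20 counted from the listed start at +1, on the antisense strand. That of Nfkbie lies at chr17:45555534-45555653 on the plus strand, with the match at -106 to -97. That of Rel lies at chr11:23771002-23771121 on the minus strand, where matches on both strands overlap from -92 to -82. Nfkb2 has 3 listed starts, and each of their windows holds a match. The stretch of the most upstream start, chr19:46304638-46304736 on the plus strand, has overlapping matches from -39 to -29 and another from -11 to -2. The later stretch is chr19:46305695-46305724, with its match at -225 to -216. The window of the middle start overlaps that window and holds the same site, at 11 to 20, besides a match of its own at -236 to -227. The count of windows with a match therefore includes this shared site in both windows, while the count of genes does not depend on it. Bcl3 has its match just past the start, at 3 to 12, within chr7:19822734-19822763 on the minus strand. The windows of Rela and Nfkbib hold no kB match. The 8 letters AAAGGTCA, the NBRE bound by NR4A receptors, were found on either strand in 0 of the 7 genes. They were found in 1.7% of all genes and 1.51% of all windows, so for 7 genes a count of 0 is near the background. A match describes letters in a window, not a bound site, and no match says only that these letters are not in that window.

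The silencing was visible in its target. Nr4a3 stood at 11.21 unstimulated and 11.77 with LPS under control siRNA, and at 7.15 and 9.39 under its own siRNA, 16.6-fold and 5.21-fold lower. Of 14 dendritic cell markers, 13 reached the filter on each array, Itgax between 12.38 and 12.89 and Cd74 between 13.38 and 13.47. Flt3 stayed below it on all 4 arrays (5.58 to 6.33). None of 12 measured lymphocyte markers reached the filter on any array. Of 14 neutrophil and progenitor markers 2 or 3 reached it on each array, among them Csf3r between 8.95 and 10.03. Of 11 measured mast cell, basophil and eosinophil markers 2 did on each array, among them Siglecf between 8.04 and 10.21. Array medians lay between 6.37 and 6.42.

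With LPS, the measured subunit genes other than Rela and all 5 listed IkB genes rose. At the 1.5-fold threshold, 7 of 9 genes were higher with LPS under control siRNA, where 10.2% of all genes were, and 8 of 9 under NR4A3 siRNA, where 10.3% of all genes were. None was lower by that size, against 9.44% and 6.88% of all genes. The median difference of the 9 genes was 1.01 under either siRNA, against -0.015 and 0.018 for all genes. In the additive limma fit, 8 of 9 rose and 0 fell, against 15.6% and 14.4% of all genes. All 9 were higher by some amount under both siRNAs, as were 39.4% of genes. Markers of cell types moved with LPS too. Under control siRNA, 3 of 11 macrophage markers were at least 1.5-fold higher, among them Marco at 3.40, and 5 lower, among them Mrc1 at -3.97 and C1qb at -2.39. Of 6 monocyte markers 2 were higher and 3 lower, among them F13a1 at -3.07 and Fn1 at -1.08, and of 13 dendritic cell markers 3 were higher and 1 lower. Their part in the LPS differences of the 9 genes was not tested.

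Among the subunits, Nfkb2, the precursor of p52, stood at 10.22 without and 11.23 with LPS under control siRNA, and at 9.86 and 10.73 under NR4A3 siRNA. Both LPS arrays lay above both unstimulated arrays, by 2.01-fold and 1.82-fold within an siRNA. Its average LPS effect was 0.93 (95% interval 0.69 to 1.18; limma, Benjamini-Hochberg adjusted p = 0.00178). Rel, which encodes c-Rel, a subunit used in myeloid and lymphoid cells for cytokine genes such as Il12b, stood at 11.65 and 12.38 under control siRNA and at 10.60 and 11.61 under NR4A3 siRNA. The LPS and unstimulated arrays of Rel overlapped, since the LPS array with NR4A3 siRNA lay just below the unstimulated control. Within an siRNA the differences were 1.65-fold and 2.02-fold, and the average was 0.87 (0.59 to 1.15; limma adjusted p = 0.00341).

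Relb, the partner of p52, was the subunit counted as higher with LPS under NR4A3 siRNA but not under control siRNA, a difference between the siRNAs that was not tested. It stood at 8.87 and 9.31 under control siRNA and at 7.79 and 8.66 under NR4A3 siRNA. LPS made 1.36-fold under control siRNA, short of the threshold, and 1.84-fold under NR4A3 siRNA, and the average effect was 0.66 (0.33 to 0.99; limma adjusted p = 0.0151). Rela, which encodes the main activating subunit p65, differed little between arrays: 10.74 and 10.86 under control siRNA, 10.61 and 10.77 under NR4A3 siRNA. Its average LPS effect of 0.14 had an interval from -0.096 to 0.38 (limma adjusted p = 0.32), and the upper end of that interval lies below the averages of the other 3 subunits.

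Among the 9 measured genes, the 4 largest average LPS effects were in IkB genes. Nfkbia encodes IkB-alpha, the inhibitor that is degraded and resynthesised in each activation cycle. It stood at 11.00 and 12.55 under control siRNA and at 10.78 and 12.03 under NR4A3 siRNA, 2.92-fold and 2.38-fold higher with LPS. Nfkbiz encodes the nuclear protein IkB-zeta, which works with p50 on secondary response genes. It stood at 7.13 and 8.69 under control siRNA and at 6.98 and 8.09 under NR4A3 siRNA, 2.96-fold and 2.15-fold higher. In neither gene did the LPS and unstimulated arrays overlap. Under control siRNA Nfkbiz ranked 267th and Nfkbia 273rd from the highest difference among 10346 genes. Their average effects were 1.33 (1.00 to 1.67) and 1.40 (1.12 to 1.68), with limma adjusted p-values of 0.00148 and 0.000637.

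Nfkbib encodes IkB-beta, a cytoplasmic inhibitor that is turned over more slowly. It stood at 11.62 and 12.87 under control siRNA and at 11.20 and 12.64 under NR4A3 siRNA. Nfkbie encodes IkB-epsilon, another cytoplasmic inhibitor, and stood at 9.61 and 10.70, then at 9.42 and 10.51, in the same order. Bcl3, a nuclear IkB protein that binds p50 and p52 dimers, stood at 10.10 and 10.86, then at 9.66 and 10.65. In each of these genes both LPS arrays lay above both unstimulated arrays. LPS made 2.38-fold and 2.70-fold for Nfkbib, 2.12-fold under either siRNA for Nfkbie, and 1.69-fold and 1.99-fold for Bcl3. The limma averages were 1.34 (1.09 to 1.60) for Nfkbib, 1.09 (0.85 to 1.32) for Nfkbie and 0.88 (0.61 to 1.14) for Bcl3, with adjusted p-values of 0.000536, 0.000842 and 0.00281.

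**Figure D1:**
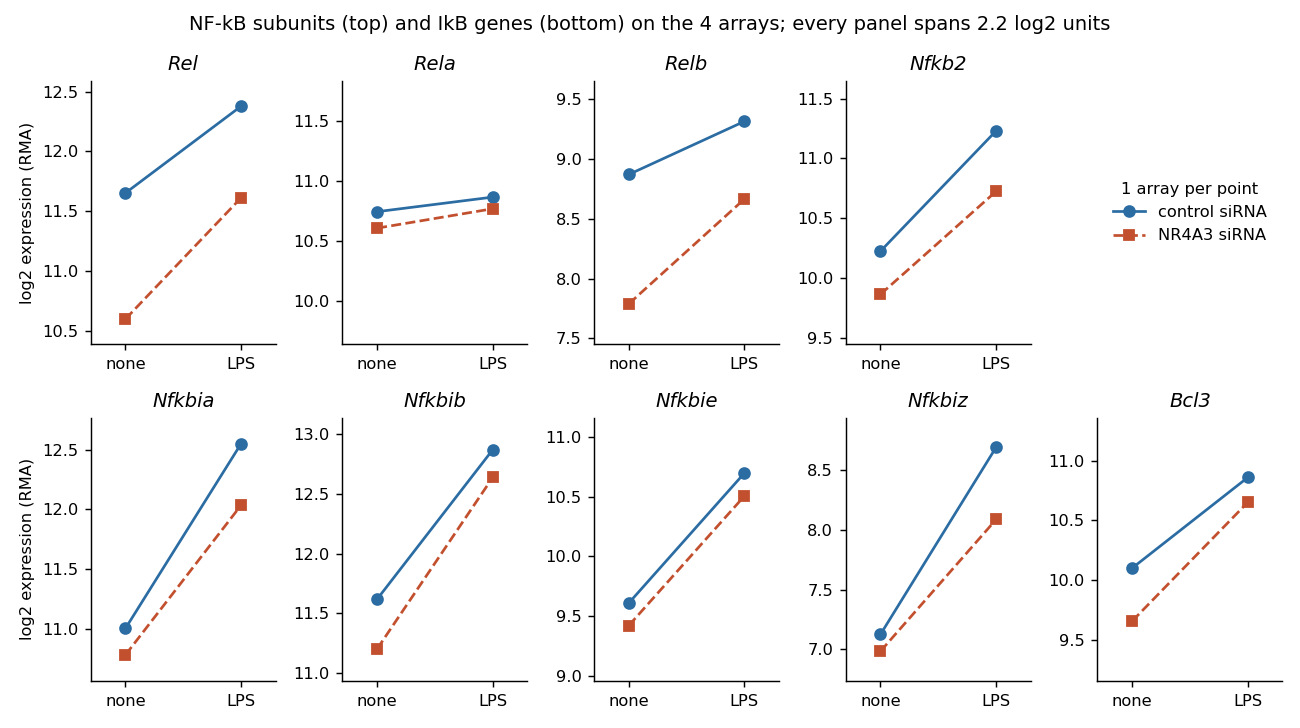
Log2 expression of the 4 measured subunit genes (top) and 5 IkB genes (bottom), without LPS (left point) and with LPS (right point), for control siRNA (solid line, circles) and NR4A3 siRNA (dashed line, squares), 1 array per point, with every panel spanning the same height. The dashed line lies below the solid line at both points in all 9 panels, with the widest gap, 1.08, in unstimulated Relb, and Rela is nearly flat.

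Silencing of NR4A3 went with lower levels of Rel and Relb. At the 1.5-fold threshold 2 of 9 genes, Rel and Relb, were lower in unstimulated cells, against 4.69% of all genes. With LPS these genes and Nfkbiz were lower, 3 of 9, against 4.73% of all genes. None of the 9 was higher by that size in either state, against 1.62% of all genes unstimulated and 3.73% with LPS. All 9 were lower by some amount in both states, as were 29.6% of all genes. The median difference was -0.36 unstimulated and -0.51 with LPS, against 0.021 and 0.053 over all genes.

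Rel was lower by 2.08-fold without LPS and by 1.70-fold with it, and both NR4A3 siRNA arrays lay below both control arrays. It ranked 158th from the lowest among 10257 genes unstimulated and 296th among 10210 with LPS. Relb was 2.12-fold lower unstimulated, rank 148, and 1.57-fold lower with LPS, rank 404, and its siRNA groups did not overlap either. In the additive limma fit Rel fell by 0.91 (SE 0.11, 95% interval -1.19 to -0.63, adjusted p = 0.0178) and Relb fell by 0.87 (SE 0.13, -1.19 to -0.54, adjusted p = 0.0282), against 3.58% of all genes that fell. None of the 9 rose, against 1.98% of all genes. Without the filter on dim genes, when 19938 genes were tested instead of 10592, the adjusted p-values were 0.0503 for Rel and 0.0719 for Relb, so 0 of 9 genes passed. Over all 9 settings they ranged from 0.00902 to 0.0503 and from 0.0179 to 0.0719.

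The other genes did not pass the limma test for silencing. Nfkb2 was 1.28-fold lower unstimulated and 1.42-fold lower with LPS, with an average of -0.43 (-0.68 to -0.18, adjusted p = 0.0682). Nfkbia was 1.17-fold and 1.43-fold lower, with an average of -0.37 (-0.65 to -0.087, adjusted p = 0.117), and Nfkbiz, with a log2 difference of -0.14 unstimulated, was 1.52-fold lower with LPS, with an average of -0.37 (-0.71 to -0.036, adjusted p = 0.159). In Nfkbib (1.33-fold and 1.17-fold lower) and Bcl3 (1.36-fold and 1.15-fold lower) the size was greater without LPS, with averages of -0.32 (-0.58 to -0.068) and -0.33 (-0.59 to -0.059) and limma adjusted p-values of 0.125 and 0.133. Including Rel and Relb, 7 of 9 unadjusted intervals lay below 0. The share of all genes with such an interval was not counted, so this count has no background. The intervals of Nfkbie (-0.43 to 0.047) and Rela (-0.36 to 0.12) spanned 0, around averages of -0.19 and -0.12, and the limma adjusted p-values were 0.271 and 0.487.

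Markers of other cell states moved with silencing. Of the 14 dendritic cell markers, 13 were tested, and 5 were at least 1.5-fold lower in each state and 0 higher, against 4.69% and 4.73% of all genes that were lower. The list's median difference was -0.033 unstimulated and -0.32 with LPS, and Cd24a differed by 0.25 and 0.41. Ccr7, a maturation marker, had log2 differences of -3.53 unstimulated and -0.74 with LPS, and Fscn1, an actin-bundling protein of mature dendritic cells, of -3.29 and -0.66. The log2 of the summed signal of the list was 15.95 and 16.17 under control siRNA, without and with LPS, and 15.59 and 15.80 under NR4A3 siRNA. Of 14 macrophage markers 13 were measured, 9 or 10 of them reached the filter on each array, and their summed signal was 14.39 and 14.36 under control siRNA and 14.79 and 14.76 under NR4A3 siRNA. At 1.5-fold, 3 of 9 tested were higher and 0 lower unstimulated, and 5 of 11 higher and 1, Marco at -0.64, lower with LPS. Over all genes 1.62% were higher by that size unstimulated and 3.73% with LPS. The complement genes C1qa, C1qb and C1qc were higher by 1.12, 1.19 and 1.22 unstimulated and by 1.02, 2.03 and 1.82 with LPS. Of 7 measured monocyte markers, 6 were tested in each state. None was 1.5-fold higher or lower unstimulated, and with LPS 3 were lower (Plac8 at -1.26, Vcan at -0.87 and Fn1 at -0.75) and 0 higher. The part of these markers in the lower Rel and Relb was not tested. In a bulk sample, fewer cells of a type and less RNA per cell cannot be told apart.

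**Figure D2:**
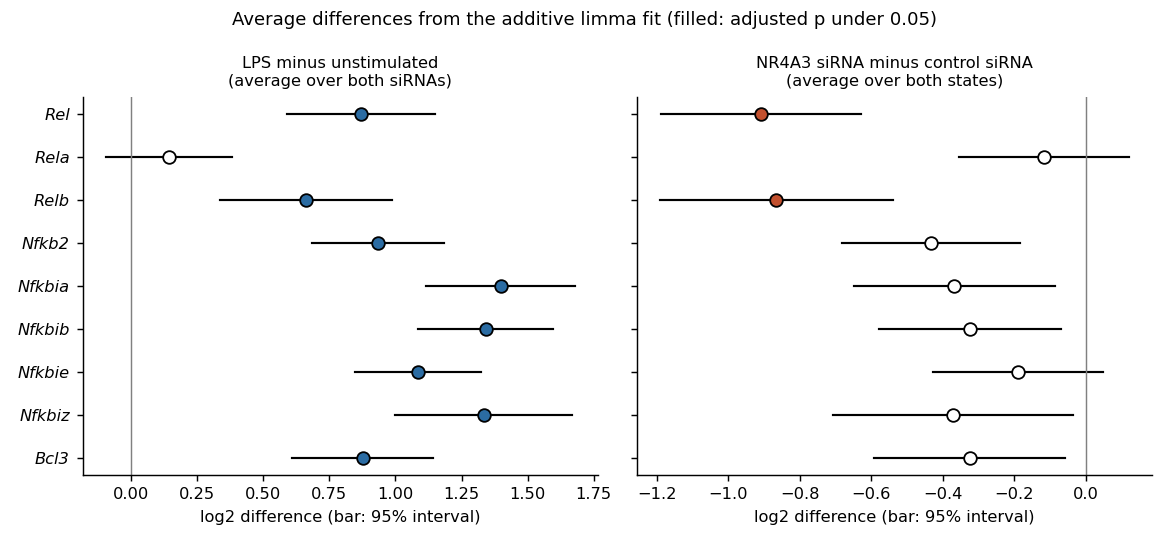
Average log2 difference for LPS (left) and for NR4A3 siRNA (right) of the 9 genes in the additive limma fit over the 4 arrays. Points are estimates, bars are 95% intervals, and filled points have an adjusted p under 0.05. For LPS, 8 of 9 points are filled and Rela is open, and for the siRNA only Rel, at -0.91, and Relb, at -0.87, are filled.

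The order of the 4 arrays was similar in the 9 measured genes. In all 9 genes the LPS array with control siRNA was the highest and the unstimulated array with NR4A3 siRNA the lowest, as in 16.2% of all genes. That restates the counts above, of 9 genes higher with LPS under both siRNAs and lower with silencing in both states, and adds nothing to them. In 7 of the 9 genes the LPS array with NR4A3 siRNA came next after the highest. In Rel and Relb the unstimulated control came next instead, so that LPS-treated cells with NR4A3 siRNA stood at 11.61 for Rel, against 11.65 in the unstimulated control, and at 8.66 for Relb, against 8.87. Rel and Relb were also the members with an adjusted p under 0.05 in the limma fit for both a rise with LPS and a fall with silencing, a pair of calls that 1.95% of genes had. Without replicates, neighbouring arrays in this order have no spread to be set against.

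The LPS differences under the siRNAs were then set side by side. The difference of the LPS effects (NR4A3 siRNA minus control siRNA) reached 1.5-fold in 0 of 9 genes, a count near the 5.02% of all genes that did, and it has no test, since 1 array per condition leaves no spread for it. It was positive in 5 genes and negative in 4. The largest positive value was 0.43, in Relb, and it was 0.29 in Rel. The lowest values were -0.46 in Nfkbiz and -0.29 in Nfkbia, and Nfkb2 had -0.15. Nfkbib and Bcl3 had 0.18 and 0.24, while Rela, at 0.040, and Nfkbie, at -0.0039, were near 0. The median size was 0.24 over the 9 genes, and over all genes that passed the filter the median was 0.15 and the 95th percentile 0.59. Each array serves in 1 comparison of LPS and 1 of siRNA, so these differences are not independent of each other.

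**Figure D3:**
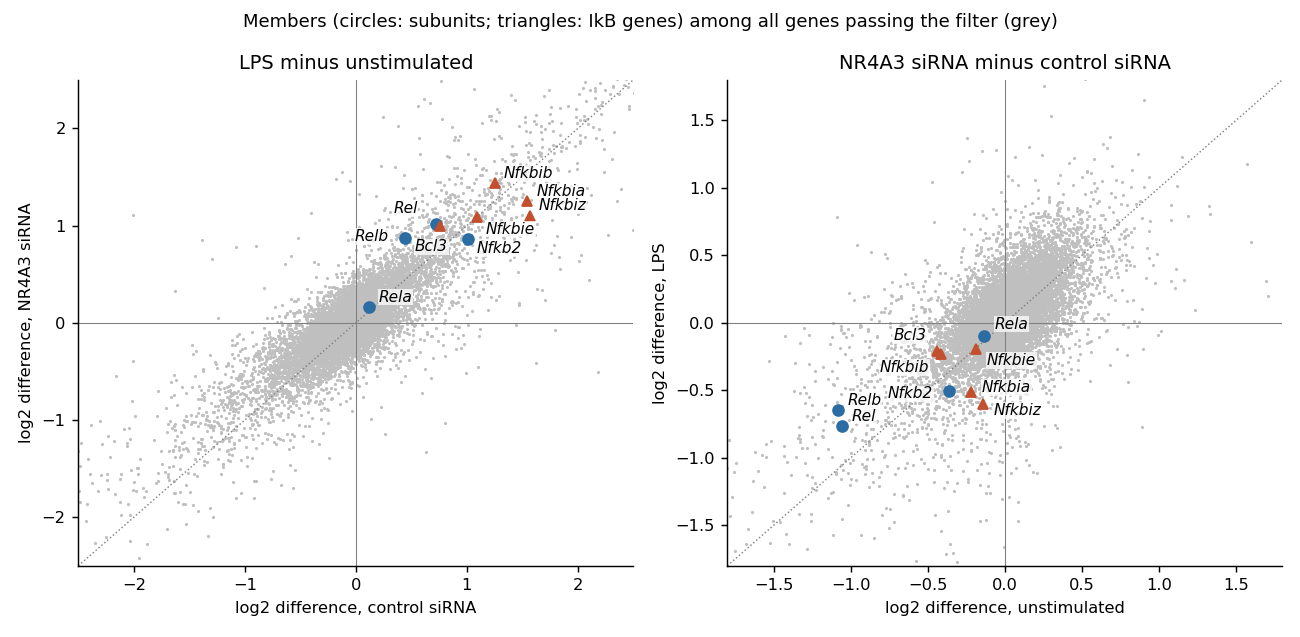
The 4 subunit genes (circles) and 5 IkB genes (triangles) among genes passing the filter (grey), as log2 differences. The left panel sets LPS minus unstimulated under NR4A3 siRNA against the same under control siRNA, and the right panel sets NR4A3 minus control siRNA with LPS against the same without LPS. The dotted line marks equal values, and some grey genes lie outside the axes. Relb, at -1.08 and -0.65, and Rel, at -1.05 and -0.77, stand apart from the other members on the right.

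The genes with the profiles most like those of the most variable members were found by the Euclidean distance between log2 profiles centred over the 4 arrays, among 10247 genes. Nearest to Rel were Jag1 (0.073), a Notch ligand, Birc2 (0.10), which encodes the ubiquitin ligase cIAP1, and Mylk (0.14), a myosin light chain kinase, with 24 genes within 0.3. Jag1 stood at 9.27 and 9.97 under control siRNA and at 8.28 and 9.29 under NR4A3 siRNA. Nearest to Nfkbia were Tlr3 (0.14), the receptor for double-stranded RNA, Atp10a (0.15) and Psme2 (0.17), a proteasome activator subunit. Nearest to Nfkbiz were Clic5 (0.16), Atp10a (0.20) and Dusp1 (0.21), a phosphatase that ends MAP kinase signalling. With 4 arrays, many genes share such a profile: 30 lay within 0.3 of Nfkbia and 22 of Nfkbiz.

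Upstream of NF-kB, 34 kinases and adaptors were listed, with earlier results of these data known, and 30 were measured. With LPS, 11 and 12 of them were at least 1.5-fold higher under control and NR4A3 siRNA, against 10.2% and 10.3% of all genes. In the limma fit 15 rose and 0 fell, against 15.6% and 14.4% of all genes. The median average effect over the list was 0.41. The 15 included the ligases Rnf31 (1.07, SE 0.11) and Traf6 (0.91, SE 0.099) and the kinase Ikbke (0.99, SE 0.098), with limma adjusted p-values of 0.0015, 0.00182 and 0.0013. With silencing, 4 unstimulated and 5 with LPS were at least 1.5-fold lower, against 4.69% and 4.73% of all genes. None was higher by that size, against 1.62% and 3.73% of all genes, which for 30 genes is near the background. The list's median average effect was -0.031, near the 0.033 of all genes.

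Of these 30 genes, 5 fell with silencing in the limma fit, against 3.58% of all genes. Map3k14, which encodes NIK, stood at 8.92 and 9.68 under control siRNA and at 7.25 and 8.15 under NR4A3 siRNA, and both silenced arrays lay below both control arrays. It was 3.18-fold lower unstimulated and 2.89-fold lower with LPS, an average of -1.60 (SE 0.10, adjusted p = 0.00458). Birc2, which restrains NIK together with Traf2 and Traf3, stood at 8.14 and 8.99, then at 7.16 and 8.12, an average of -0.93 (limma adjusted p = 0.0127). Ikbkb, the IKK-beta kinase that phosphorylates IkB-alpha, stood at 9.09 and 9.49, then at 8.33 and 8.79, an average of -0.73 (limma adjusted p = 0.0201). Ikbkg, the regulatory IKK subunit NEMO, stood between 8.70 and 8.93 on all arrays. Traf6 had an average of -0.67 and Rnf31 of -0.62, with limma adjusted p-values of 0.026 and 0.0377. Without the filter on dim genes Map3k14, Birc2 and Ikbkb stayed under the threshold (0.0206, 0.0372 and 0.0466), and Traf6 and Rnf31 did not (0.0533 and 0.0744).

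Among other inhibitors of the pathway, Tnfaip3, Tnip1, Zc3h12a and Irak3 rose with LPS, and none passed the test for silencing. Of 24 negative regulators, all measured, 10 rose with LPS in the limma fit and 0 fell, against 15.6% and 14.4% of all genes. With silencing 0 rose and 0 fell in that fit. At an unadjusted p under 0.05 there were 2 higher and 1 lower, a count whose share over all genes was not taken. Over all genes 1.98% rose and 3.58% fell, so for 24 genes counts of 0 are near the background. At 1.5-fold, 5 of 23 tested under control siRNA and 7 of 24 under NR4A3 siRNA were higher with LPS, against 10.2% and 10.3% of all genes. With silencing 0 were higher or lower by that size in either state. Over all genes 1.62% were higher and 4.69% lower unstimulated, and 3.73% higher and 4.73% lower with LPS, so these counts of 0 are near the background too. Tnfaip3, which encodes the deubiquitinase A20, stood at 9.04 and 10.48 under control siRNA and at 9.04 and 10.32 under NR4A3 siRNA, an average LPS effect of 1.36 (limma adjusted p = 0.000483) and an average silencing effect of -0.079 (limma adjusted p = 0.656). Tnip1, an A20 partner, rose by 1.08, Zc3h12a, which encodes the RNase Regnase-1, by 1.03, and Irak3, an inhibitory IRAK, by 1.00, with SEs between 0.097 and 0.11. Nfkbid, a further nuclear IkB gene outside the 10, stood between 7.58 and 7.83, with averages of -0.14 for LPS and 0.12 for silencing (limma adjusted p = 0.364 and 0.514).

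**Figure D4:**
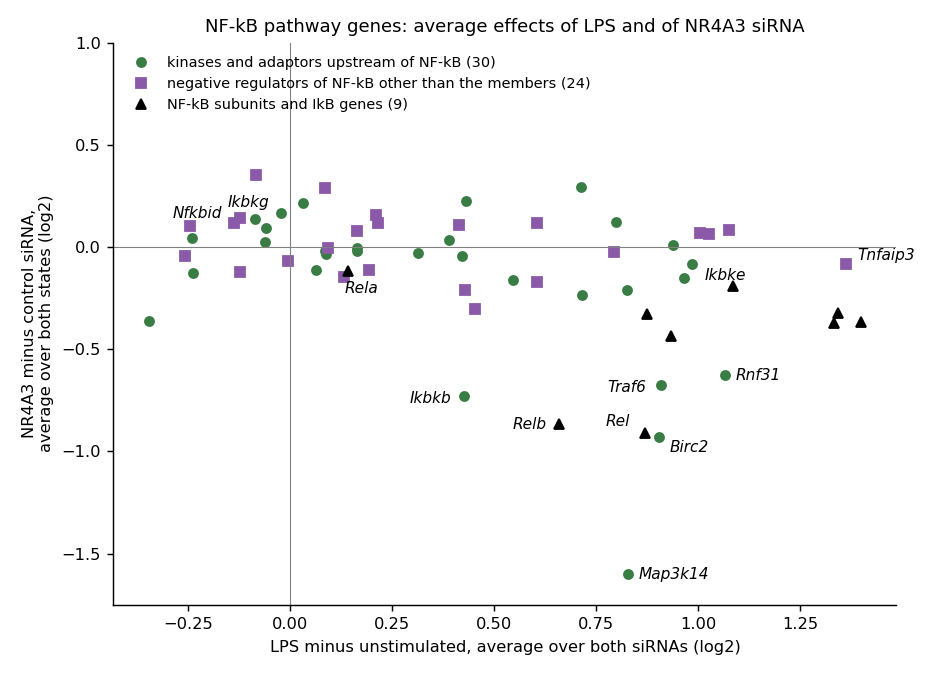
Average log2 difference with NR4A3 siRNA (vertical) against that with LPS (horizontal) from the additive limma fit, 1 point per gene, for 30 upstream kinases and adaptors (circles), 24 negative regulators (squares) and the 9 subunit and IkB genes (triangles). Map3k14, at 0.83 and -1.60, is the lowest point, and Rel lies beside Birc2, while Tnfaip3, at 1.36 and -0.079, is far to the right near the zero line.

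Of 36 common NF-kB target genes, 35 were measured and 33 could be tested. The whole list was chosen with earlier results of these data known, so its counts are not independent support. With LPS, 28 and 26 of the 33 were at least 1.5-fold higher under control and NR4A3 siRNA, against 10.2% and 10.3% of all genes. In the limma fit 29 rose and 1, the protease gene Plau, fell by 1.54, against 15.6% and 14.4% of all genes. With silencing, 10 of 30 unstimulated and 11 of 33 with LPS were at least 1.5-fold lower, against 4.69% and 4.73% of all genes. In each state 1 was higher, against 1.62% and 3.73% of all genes. In the limma fit 6 of 33 fell, against 3.58% of all genes: the maturation markers Cd83 (-2.19) and Cd86 (-0.99), the IL-12 p40 gene Il12b (-2.05), the stress gene Gadd45b (-1.30), the signalling adaptor Traf1 (-1.20) and Marcksl1 (-0.79, named after its values were seen), with adjusted p-values between 0.011 and 0.0433. Plau rose by 0.74 (limma adjusted p = 0.039). Without the filter on dim genes Cd83 and Cd86 stayed under the threshold, at adjusted p = 0.046 and 0.0372 in limma, and Traf1, Il12b, Gadd45b, Marcksl1 and Plau did not (0.0679, 0.0872, 0.115, 0.0731 and 0.0875).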

How the data were processed

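Total RNA of mouse dendritic cells in 4 conditions was measured on 1 array each. The authors deposited log2 expression, which the labels describe as quantile-normalized RMA output, and Affymetrix Expression Console 1.1 is named, per the submitters' processing notes. The design text also names GeneSpring. Quantile normalization would hide a shift of most genes in 1 direction. For the genome build behind the probe sets, and for any filter before deposit, the sources used here give nothing.

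Of 28856 probe sets, 21789 had 1 gene symbol and were used; 1621 had several and 5446 had none. Gene identifiers of 21698 were found in the RefSeq table, with 0 symbols differing. A gene with several probe sets (999) was taken at the brightest. The filter was the median of named genes over the 4 arrays. Differences between 2 arrays have no test. The additive model of siRNA and LPS (limma 3.58.1 in R 4.3.3, lmFit and eBayes) had 3 coefficients, 1 residual degree of freedom and a prior of 4.76 degrees of freedom, and its residual is the difference of LPS effects plus array noise. It was checked on simulated data with additive effects only and noise drawn from the fit's own prior. That check could not test whether the effects in these arrays are additive. The number of arrays limits the precision.

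Promoter windows were searched on both strands. Alternatives were median centring, repeated quantile normalization, cyclic loess, averaging over probe sets of a gene, no filter or the 75th percentile (8.67), folds of 2 and 3, and trended or robust variance priors. The 10 genes, the pathway lists and the markers were chosen with earlier results of these data known. Named were all members, Nr4a3, up to 5 genes per pathway list and comparison with the largest differences, Nfkbid, Ikbkb, Ikbkg, Chuk, Map3k14, Tnfaip3 and Traf1, the 3 nearest profiles to each of the 3 most variable members, and markers where their list is given. Chuk is not analysed here.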

Additional observations from a re-analysis of the deposited data

How the results depend on the processing

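No paired analysis was possible because each condition has 1 array, and for the same reason no array could be left out. Raising the fold threshold lowered most counts of members. With LPS under control siRNA 5 of 9 were 2-fold higher and 0 were 3-fold higher, against 5% and 2.51% of all genes. Under NR4A3 siRNA 8 were higher at 1.5-fold, 5 at 2-fold and 0 at 3-fold, with 5.31% and 2.69% of all genes at 2-fold and 3-fold. With silencing unstimulated 2 stayed 2-fold lower and 0 were 3-fold lower, against 1.72% and 0.614% of all genes. In the LPS state 0 were 2-fold or 3-fold lower with silencing, against 1.67% and 0.431%. For 9 genes, counts of 0 are near these shares. Without the filter on dim genes the limma fit for silencing called 0 of 9 members lower, and the count over all genes was 132, against 379 with the filter. At an unadjusted p under 0.05 there were 7 of 9 members, with no share over all genes counted. Of the settings of the member counts, 45 stayed within 1.5 times the main count and 7 fell further below it. Over all genes the shares called at 1.5-fold without the filter were 5.6% and 5.66% for higher with LPS and 2.65% and 2.56% for lower with silencing. For the 9 single genes, 285 values kept their direction and side of the threshold, 3 lost the call and 0 reversed. The 3 were Rel and Relb for silencing without the filter, and Rel for LPS, as follows. Under repeated quantile normalization Rel differed by 0.56 with LPS under control siRNA, against 0.73, and fell short of 1.5-fold.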

Other observations

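In several common NF-kB target genes the LPS difference was not of 1 size under the 2 siRNAs, and this has no test. The difference of the LPS effects (NR4A3 siRNA minus control siRNA, log2) was at least 1.5-fold in 14 of 33 targets, 8 positive and 6 negative against 5.02% of all genes. The LPS differences of these targets were large, with a median of 1.63 under control siRNA. Among the positive genes, the chemokine receptor gene Ccr7 differed by 0.39 with LPS under control siRNA and by 3.19 under NR4A3 siRNA. The chemokine gene Ccl5 differed by 0.92 and 2.79, and Il12b by 4.50 and 5.97. Among the negative genes, the adhesion molecule gene Vcam1 differed by 2.10 and 0.44, and the chemokine gene Cxcl10 by 4.70 and 3.69. Of the 30 upstream genes 1 passed that size: the kinase gene Map3k8, with 0.88 and 0.22. Of the 24 negative regulators 0 did.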
